A study of Mus musculus with 12 samples.

Results

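Macrophages at the border of the brain take up and digest dying cells and debris, and RNA from the engulfed material can be read in the same droplet as the macrophage's own. The cells described here are meningeal macrophages of newborn mice whose barcodes also held RNA of neurons and of the glia of the developing brain, called carriers here. A barcode stands for one droplet. It was counted as a macrophage when Mrc1, Cd163, F13a1, Cbr2 and Pf4, 5 genes of border macrophages, together had at least 10 UMIs (unique molecular identifiers, which count RNA molecules) and more than Sparc, P2ry12, Tmem119 and Sall1, 4 genes of microglia. A macrophage was a carrier when Tubb3, Stmn2, Stmn3, Map1b and Fabp7 together, the neuronal sum, had at least 8 UMIs. It was a low macrophage when that sum was at most 1. Carriers were thus chosen by their own counts of these genes. Of 21689 kept barcodes, 16272 were macrophages, and 307 of these were carriers. A further 13237 were low macrophages, and 2728 had a sum of 2 to 7.

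The cells came from the meninges of C57Bl/6j mice at postnatal day 4, the naive group untreated as far as the labels say, the HI group taken 6 h after HI, which the series' design text spells out as hypoxic-ischemic. The labels name no other allele or agent and no sham-operated group, so effects of handling or surgery and of HI cannot be told apart. Each of the 2 naive and 2 HI libraries was a pool of 12 mice, 6 males and 6 females, made with the 10x Genomics 5' kit. The p-values rest on these 4 libraries only. For HI within a class of cells they measure the spread between libraries. For carriers against low macrophages, and for the difference between HI responses, they measure how the difference within a library varies across libraries. The libraries were processed in 2 runs, each with 1 library of either group. Which library was in which run is not given in the labels. Values in sets of 4 below are in the order naive 1, naive 2, HI 1, HI 2.

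The 5 genes of the neuronal sum have different textbook sources. Tubb3 encodes a tubulin of neurons, Stmn2 and Stmn3 encode stathmins that act on microtubules in growing axons, and Map1b encodes a microtubule-associated protein of extending axons. Fabp7, a fatty acid binding protein, marks radial glia and immature astrocytes rather than neurons. Phagocytes recognise dying cells by exposed phosphatidylserine, through receptors such as Mertk, Axl and Timd4 and bridging proteins such as Gas6 and Pros1, and digest them in lysosomes with cathepsins and nucleases.

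The libraries held 51986763 to 68543046 UMIs. The label was checked on 20 border macrophage genes outside the gate, which summed to 11725 to 14741 UMIs per 1000000 UMIs (CPM) in carriers and to 14340 to 15494 in low macrophages. Of the 5 gate genes, which the rule used, Pf4, a chemokine, was at 5793, 5297, 6552 and 5492 CPM in carriers and 5744 to 6090 in low macrophages, and Cd163, F13a1 and Cbr2 had log2 differences of -0.40, -0.18 and -0.38. Carriers were deeper than low macrophages in each library, with median UMIs of 13261, 11822, 12280 and 10587 against 11012, 10138, 11177 and 9808. Their mitochondrial share was higher as well, with medians of 3.31%, 3.15%, 3.29% and 3.4% against 2.62%, 2.68%, 2.48% and 2.46%. Among carriers, 4, 6, 0 and 1 were among the barcodes with the highest doublet scores. These were 2.74%, 5.04%, 0% and 3.57% of carriers, against 3.94%, 4.39%, 3.75% and 5.65% of low macrophages. Whether the score marks droplets of a macrophage and a neural cell was not tested. None of the 307 carriers had a productive B- or T-cell receptor contig, against 18 (0.136%) and 5 (0.0378%) of the 13237 low macrophages. At such low shares, 0 among 307 does not set carriers apart. Between 29 and 54 barcodes were shared by a pair of libraries, and none of them was a carrier. HI 1 had only 14 carriers, so 1 UMI there is 4.94 CPM and its low values are coarse.

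Fabp7 supplied most of the neuronal sum. These values chose the cells and are given as a description. Over all carriers, Fabp7 made up 55.4% of the sum and was detected in 284 of 307 cells (92.5%). Stmn2 was detected in 196 (63.8%), Map1b in 185 (60.3%), Tubb3 in 165 (53.7%) and Stmn3 in 161 (52.4%). All 5 genes were detected in 64 carriers, 35 had Fabp7 alone, and 23 had no Fabp7. In 185 carriers (60.3%), at least 2 UMIs of Fabp7 stood with at least 2 UMIs summed over the other genes, which could come from a single gene. By library, such carriers were 103 of 146, 62 of 119, 7 of 14 and 13 of 28. Glial and neuronal RNA thus shared a barcode in the larger part of carriers in both naive libraries. In HI 1 and HI 2 this was not the larger part. Fabp7 was at 669, 687, 534 and 598 CPM in carriers and at 16.9, 16.4, 9.0 and 12.0 in low macrophages. Map1b was at 186, 142, 178 and 154 CPM in carriers, Stmn2 at 167, 116, 133 and 177, Tubb3 at 153, 110, 84.0 and 117, and Stmn3 at 106, 73.5, 84.0 and 94.0.

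The sum ranged widely among carriers. Its median was 11, 11, 11.5 and 11 UMIs and its highest value 203, 178, 40 and 46. A sum of 8 to 19 held 263 carriers, 44 had at least 20, and 9 had at least 50. At the threshold, 111 macrophages had a sum of 7, 99 of them naive and 12 HI, with a median of 5 Fabp7 UMIs and 145 gate UMIs. The 58 macrophages with a sum of 8, 52 naive and 6 HI, had medians of 6 and 151.5, so the threshold cuts a continuous range. By position in the mouse genome (GRCm38.p6), the protein-coding genes of the sum lie apart: Tubb3 on chr8:123411553-123422015, Stmn2 on chr3:8509527-8561604, Stmn3 on chr2:181306459-181314500, Map1b on chr13:99421464-99516602 and Fabp7 on chr10:57784923-57788450.

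Carriers were a smaller share of the macrophages 6 h after HI. They made up 3.95% of macrophages in naive 1 (146 of 3696, 95% Clopper-Pearson interval 3.35 to 4.63), 2.65% in naive 2 (119 of 4492, 2.2 to 3.16), 0.443% in HI 1 (14 of 3161, 0.242 to 0.742) and 0.569% in HI 2 (28 of 4923, 0.378 to 0.821). The intervals cover counting error only. The groups did not overlap. The mean was 3.30% ± 0.920 in naive and 0.506% ± 0.0890 in HI libraries (SD, n = 2 each), 6.52-fold lower, with a two-sided exact permutation p of 0.333, the smallest that 2 against 2 can give. The lower share was known when these cells were chosen for description, and is given as a value.

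The groups also differed in single UMIs and in the highest sums. Macrophages with a sum of at least 1 made up 49.7% ± 3.73 of naive and 27.4% ± 4.66 of HI macrophages, and those with a sum of 2 to 7 made up 24.1% ± 1.82 and 9.16% ± 2.18 (SD, n = 2 each). Sums of at least 20 were found in 24, 14, 3 and 3 cells. Sums of at least 50 were found in 6 and 3 naive cells and in 0 HI cells, which allows up to 0.0949% of HI 1 and 0.0609% of HI 2 macrophages. The fold between groups was smaller for the lower sums, 1.81 for at least 1 UMI and 2.63 for 2 to 7, and the difference between those folds was not tested. Without Fabp7, macrophages with at least 5 UMIs of the other 4 genes were 7.43-fold fewer in HI. With each cell thinned to 3000 UMIs, those with at least 3 UMIs of the sum were 6.24-fold fewer.

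**Figure D1:**
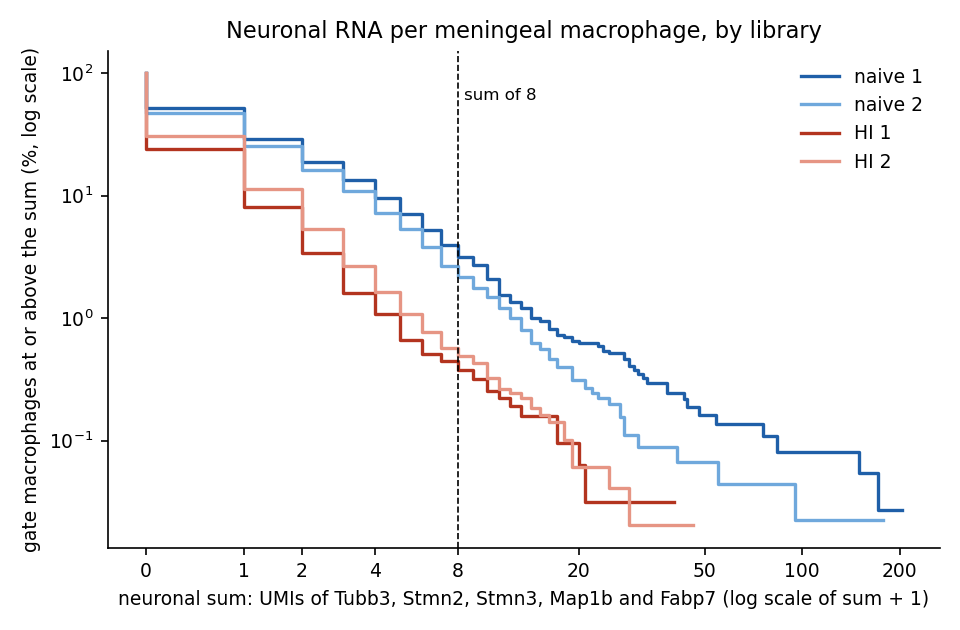
Share of gate macrophages (percent, log axis) whose neuronal sum was at or above each value (UMIs, log axis), 1 line per library; the dashed line is the carrier threshold of 8 UMIs. Both naive lines lie above both HI lines at 8 UMIs, 3.95% and 2.65% against 0.443% and 0.569%, and only the naive lines go past 50 UMIs.

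UMIs of the 5 genes were rare in T and NK cells, patrolling monocytes and neutrophils, and less so in B lineage cells and the microglia gate. At least 1 UMI was found in 49.5% of naive and 28.1% of HI macrophages (8188 and 8084 cells pooled over libraries, median UMIs 10908 and 10514). T and NK cells of near-equal depth, which should lack these genes, had one in 3.70% of 162 naive and 3.92% of 102 HI cells (median UMIs 9597 and 9657). Patrolling monocytes had one in 4.76% and 2.93% and neutrophils in 2.54% and 2.70%, at lower depth. After thinning to 3000 UMIs, with no cell left out as too shallow, the share was 24.5% and 10.9% in macrophages and 0.617% and 0.980% in T and NK cells. Per 10000 UMIs, macrophages held 1.34 naive and 0.456 HI UMIs of the sum and T and NK cells 0.0313 and 0.0334. The microglia gate held 0.836 and 0.319, and in HI 1 it stood above macrophages, at 0.451 against 0.350. The share with a UMI was also lower in HI in the microglia gate (14.4% naive, 10.1% HI), in monocytes and in B lineage cells (12.8%, 2.80%), and the difference between types was not tested.

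A sum of at least 8 was found in none of 1281 patrolling monocytes, which allows up to 0.234%, and in none of 414 neutrophils, up to 0.725%. It was found in 2 of 287 B lineage cells and in 27 of 2511 barcodes of the microglia gate. Fabp7 made up 79.5% of the sum in the microglia gate and 59.2% in macrophages. A set of 70 barcodes, 31, 19, 5 and 15 per library, had a sum of at least 8 with fewer than 10 UMIs of the macrophage genes. These neural barcodes, 24 of them in the microglia gate, had a median sum of 34.5 and a highest of 276. They were a mixed set: the microglia list summed to 615 to 6442 CPM in them and to 1535 to 1936 in low macrophages. Their values stand below beside those of carriers.

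**Figure D2:**
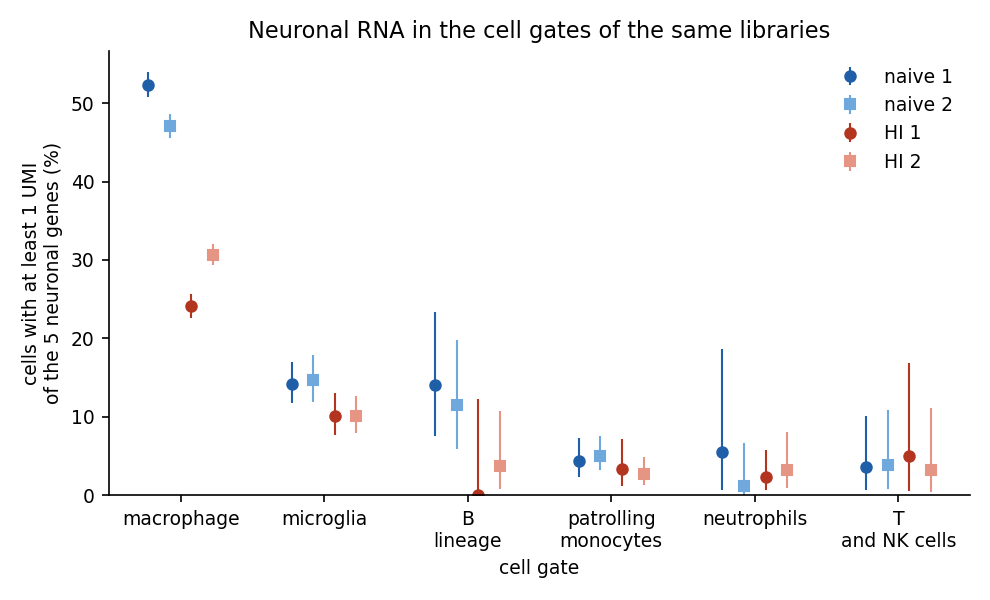
Percent of cells with at least 1 UMI of the 5 neuronal sum genes, by cell gate and library, with 95% Clopper-Pearson intervals. Macrophages stand above every other gate in all 4 libraries, and their naive libraries (52.4% and 47.1%) stand above their HI libraries (24.1% and 30.7%).

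Carriers held RNA of many neuronal genes beyond the 5 that chose them. Since these genes travel with the sum, their differences are a description with no test. On the log2 scale of the fit, the cytoskeleton and axon growth list was higher in carriers for 24 of 24 genes tested, with a median of 4.07, and the synapse and excitability list for 13 of 13, with a median of 3.12, where the median over all 11981 genes was -0.02. Tuba1a, an alpha tubulin of growing neurons, was at 1057, 595, 435 and 706 CPM in carriers and at 71.1, 66.7, 47.1 and 47.6 in low macrophages. Tubb2b, a beta tubulin, was at 347, 208, 212 and 265 CPM against 8.97 to 16.4. Gap43, a growth cone protein, was at 102, 48.4, 69.2 and 48.4 CPM against 1.77 to 4.49. The lowest carrier value of each of these 3 genes was above the highest low macrophage value, in all libraries. Per cell, Tuba1a was detected in 93.5% of carriers and 38.0% of low macrophages, Tubb2b in 77.2% and 11.5%, and Gap43 in 40.4% and 3.15%.

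Among the genes furthest apart were several of young neurons. Sox11, a transcription factor of differentiating neurons, was at 46.5, 20.7, 14.8 and 71.2 CPM in carriers and at 0.486 to 1.43 in low macrophages (log2 5.07). Tubb4a, another beta tubulin, was at 62.2, 42.1, 49.4 and 108 CPM against 0.886 to 2.59 (log2 5.04). Uchl1, a ubiquitin hydrolase abundant in neurons, was at 72.5, 59.1, 69.2 and 56.9 CPM against 1.43 to 3.59 (log2 4.62). Stmn4, Crmp1, Dcx, Sncb, Nsg1 and Nsg2, genes of microtubules, axon guidance, synuclein and vesicle sorting, differed by 4.47 to 4.78. Dbn1, Gpm6a, Ncam1, Fez1 and Bex2, which were in none of the neural lists and include drebrin and a neural adhesion molecule, differed by 4.33 to 4.44. Snap25, a protein of synaptic vesicle fusion, was at 15.2, 11.3, 14.8 and 11.4 CPM against 0.282 to 0.551, and was detected in 14.7% of carriers and 0.431% of low macrophages.

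RNA of several neuron classes was present at low levels, in few cells each. Slc17a7, the vesicular glutamate transporter of cortical neurons, was detected in 8 carriers, Gad1, an enzyme of GABA synthesis, in 9, and Reln, the secreted protein of Cajal-Retzius cells, in 11. Reln was at 7.35, 1.26, 19.8 and 19.9 CPM in carriers and at 0.162 to 0.303 in low macrophages. Npy, a neuropeptide of interneurons, was detected in 20 carriers. Pax6, a transcription factor of progenitors and granule cells, was at 11.8, 4.4, 9.88 and 28.5 CPM against 0.0857 to 0.453, and Zic1, of cerebellar and medial neurons and of meninges, at 23.5, 6.28, 9.88 and 31.3 against 1.03 to 1.52. Tbr1 of the cortical list and Trp73 of the Cajal-Retzius list had 0 UMIs in all carriers.

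Glial RNA was present beside Fabp7. Of the radial glia and astrocyte list, 21 of 22 genes tested were higher in carriers, with a median log2 of 3.32. Ptprz1, a receptor phosphatase of radial glia, was at 53.4, 15.1, 4.94 and 14.2 CPM against 0.372 to 1.29. Slc1a3, the astrocyte glutamate transporter, was at 83.7, 27.0, 4.94 and 28.5 CPM against 1.23 to 1.96, with 32% of its UMIs in one cell. Sox9, a glial transcription factor, was at 22.0, 11.9, 9.88 and 25.6 CPM against 0.456 to 0.992. All 6 genes tested of the oligodendrocyte lineage were higher, with a median of 3.13, but 58.9% of the Bcas1 UMIs came from one cell. Of the Schwann and ensheathing glia list, 2 genes were tested, 1 of them higher, and Gfra3, Cdh19 and Foxd3 had 0 UMIs in all carriers.

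The neural genes profiled were higher at larger sums. Pooled over libraries, Tuba1a was at 57.1 CPM in low macrophages, 143 at a sum of 2 to 7, 414 at 8 to 11, 793 at 12 to 19, 1801 at 20 to 49, 3884 at 50 or more, and 5116 in the neural barcodes. Pf4 was at 5963, 6093, 5880, 5378, 5480 and 4117 CPM over the same macrophage bins and at 15.1 in the neural barcodes. The bins held 13237, 2728, 176, 87, 35 and 9 macrophages, so the last rests on few cells. Measured per 100 UMIs of Tubb3, Stmn2, Stmn3 and Map1b, Tuba1a was at 146 at a sum of 2 to 7, 144 at 8 to 11, 189 at 12 to 19, 122 at 20 to 49, 175 at 50 or more and 175 in the neural barcodes. Gap43 was at 11.9, 13.1, 14.5, 12.7 and 18.0 over those macrophage bins and 12.7 in the neural barcodes. The denominator is made of genes that set the bins, so these ratios are a description: in low macrophages, whose sum was at most 1, they were 649 for Tuba1a and 35.3 for Gap43. Fabp7 stood higher in most macrophage bins than in the neural barcodes, at 156, 144, 149, 58.8 and 166 against 83.3. The genes of this profile were picked after their values were seen.

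**Figure D3:**
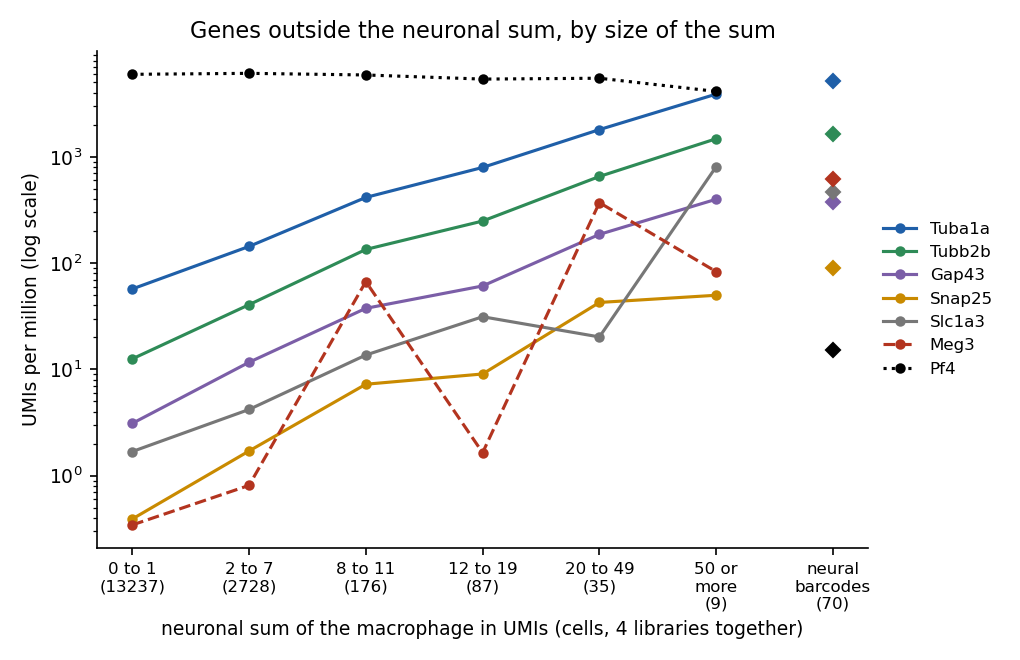
Level (CPM, log axis) of 5 neural genes, the long non-coding RNA Meg3 and the macrophage gene Pf4 in macrophages by size of the neuronal sum, 4 libraries together; diamonds are the 70 neural barcodes. Tuba1a goes from 57.1 in low macrophages to 3884 at sums of 50 or more while Pf4 stays between 4117 and 6093.

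Meg3, a long non-coding RNA (chr12:109540996-109571729, GRCm38.p6) that neurons keep in the nucleus, was not detected in most carriers. It was detected in 10 of 307 (3.26%, 95% Clopper-Pearson interval 1.57 to 5.91) and in 21 of 70 neural barcodes (30.0%, 19.6 to 42.1). Of its 339 UMIs in carriers, 144 and 137 came from 2 cells, 82.9% of the whole. Because the neural barcodes had higher sums, the same was counted at matched amounts of neuronal RNA. Among barcodes with 8 to 19 UMIs of Tubb3, Stmn2, Stmn3 and Map1b, Meg3 was detected in 3 of 62 carriers (4.84%, 1.01 to 13.5) and in 8 of 17 neural barcodes (47.1%, 23.0 to 72.2), and these intervals do not overlap. At 20 or more it was in 5 of 21 carriers (23.8%, 8.22 to 47.2) and 12 of 28 neural barcodes (42.9%, 24.5 to 62.8), where they do. The amount did not follow the detection: the 4 nuclear RNAs of the list that the files hold came to 28.3 UMIs per 100 of the 4 neuronal genes in carriers and 9.58 in neural barcodes at 20 or more, and to 28.8 and 26.0 at 8 or more. The intervals cover counting error only, and cells of one library are not replicates. None of these 4 was found in 295 of the 307 carriers, 140, 114, 13 and 28 per library.

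Next, all genes, neural ones included, were compared between carriers and low macrophages, in a fit on the 8 sums of counts with the library as a block. Since the cells were split by their own counts, and carriers were deeper with a higher mitochondrial share, the main counts are also given against low macrophages matched in depth, as many as the carriers and therefore fewer cells. Of 11981 genes, 1004 passed an adjusted p of 0.05 in edgeR's quasi-likelihood test (8.38%), 694 higher in carriers (5.79%) and 310 lower (2.59%), the neural genes above among the former. Of the 694, 620 were outside the neural lists, but these lists are not complete, and Dbn1 and Ncam1 are among the 620. The count of higher genes thus holds genes that travel with the sum and is no count of the macrophages' own genes. Against low macrophages matched in depth, 134 were higher and 57 lower of 7715. Without TMM scaling 78.9% of the called genes were higher, and with DESeq2 83.2%, where the edgeR fit had 69.1%. Without naive 1, 577 passed.

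Among the genes with the largest decreases were a galectin, chemokines and inhibitory receptors. Wfdc17, a secreted protein of activated macrophages, was at 38.2, 25.8, 14.8 and 34.2 CPM in carriers and at 146, 90.1, 146 and 96.1 in low macrophages (log2 -1.96 ± 0.13 SE, edgeR adjusted p 2.2e-18), lower in every library, as the rule for named genes required. Lgals3, a galectin of activated phagocytes, was at 3.43, 16.3, 69.2 and 17.1 CPM against 68.0, 36.2, 91.9 and 64.5 (log2 -2.12 ± 0.23, edgeR adjusted p 2.2e-10), a call lost with DESeq2. In HI 1 it was close to the low macrophages. Ccl6, a chemokine, was at 99.4, 98, 163 and 42.7 CPM against 180 to 269 (log2 -1.21), with no overlap. Adgre5, an adhesion receptor of leukocytes, was at 10.3, 11.3, 0 and 0 CPM against 13.3 to 26.7 (log2 -1.48). Apoc1, an apolipoprotein, Ccl3, a chemokine, Capg, an actin capping protein, Pmepa1, a regulator of TGF-beta signalling, and Lilrb4a and Pirb, inhibitory receptors, fell by 1.15, 1.05, 0.95, 0.86, 0.84 and 0.83 on the log2 scale. Of 6 monocyte genes tested, 1 rose and 3 fell (median -1.02), and 0 of 2 were called at matched depth. Vcan, a matrix proteoglycan, was the one that rose, at 12.2, 4.4, 4.94 and 2.85 CPM against 0.634 to 3.04 (log2 2.37), with 0.53 and no call at sums of 8 to 19 and 1.58 and no call without naive 1. The neural barcodes held 72.2 CPM of it. Ly6c2, a surface protein of inflammatory monocytes, had 0 UMIs in carriers against 7.60 to 8.43 CPM in low macrophages. Ccr2, the monocyte chemokine receptor, was at 0, 11.9, 0 and 31.3 CPM against 14.5 to 27.2 (log2 -1.51), and was at 0.61 against macrophages with a sum of 2 to 7.

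Genes of apoptotic cell uptake were lower in carriers by small amounts. Of 25 tested, 14 fell and none rose, with a median log2 of -0.24 where the median of all genes was -0.02, and 0 of the 25 had a positive difference. Timd4, a phosphatidylserine receptor, was at 48.5, 30.2, 34.6 and 11.4 CPM in carriers and at 77.0, 68.1, 45.5 and 33.1 in low macrophages (log2 -0.92 ± 0.13, edgeR adjusted p 1.8e-07), lower in each library. Axl, a receptor for Gas6, was at 10.3, 15.7, 4.94 and 14.2 CPM against 20.1 to 25.0 (log2 -0.89), not called with DESeq2, at matched depth, against sums of 2 to 7 or without naive 1. Mertk, the related receptor, was at 46.5, 43.4, 59.3 and 51.3 CPM against 62.6, 56.5, 69.0 and 62.6 (log2 -0.42), also not called with DESeq2, at matched depth, or without naive 1 or naive 2. Against low macrophages matched in depth 2 of 23 were lower and 0 higher. The 5 genes of the macrophage gate, which the rule used, had a median of -0.18 in the same fit.

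Lysosomal genes and the sensors of nucleic acids in endosomes showed the same direction. Of 33 genes of the lysosome and nucleic acid digestion, 14 fell and none rose (median -0.22), and 6 of 30 fell at matched depth. Ctss, a cathepsin of antigen processing, was at 803, 872, 845 and 863 CPM against 1051, 982, 1062 and 1041 (log2 -0.34 ± 0.06, edgeR adjusted p 5.9e-06), with no overlap. Ctsz, Ctsd and Cd68, cathepsins and a lysosomal membrane protein, fell by 0.33, 0.31 and 0.28 on the log2 scale. Of 13 sensor genes, 3 fell, namely Unc93b1, which brings Toll-like receptors to endosomes, by 0.31, Tlr13, a receptor of bacterial RNA, by 0.40, and Irf5, a transcription factor downstream of these receptors, by 0.30. None of 12 was called at matched depth. Of 10 interferon response genes, 3 fell and none rose (median -0.35), and 0 of 8 were called at matched depth. Among them Ifitm3, an antiviral membrane protein, was at 247, 239, 336 and 310 CPM against 460, 359, 472 and 438 (log2 -0.71).

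Fabp5 was the exception among the genes of lipid handling, of which 1 of 17 rose and 6 fell (median -0.26), and 1 of 12 rose and 3 fell at matched depth. Fabp5, a fatty acid binding protein of macrophages and of neural progenitors, was at 224, 203, 138 and 228 CPM in carriers and at 103, 43.9, 78.4 and 68.1 in low macrophages (log2 1.51 ± 0.11, edgeR adjusted p 1.3e-15). It was detected in 78.5% of carriers and 29.3% of low macrophages. The neural barcodes held 1111 CPM of it. Whether it came with the neural RNA was not tested.

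**Figure D4:**
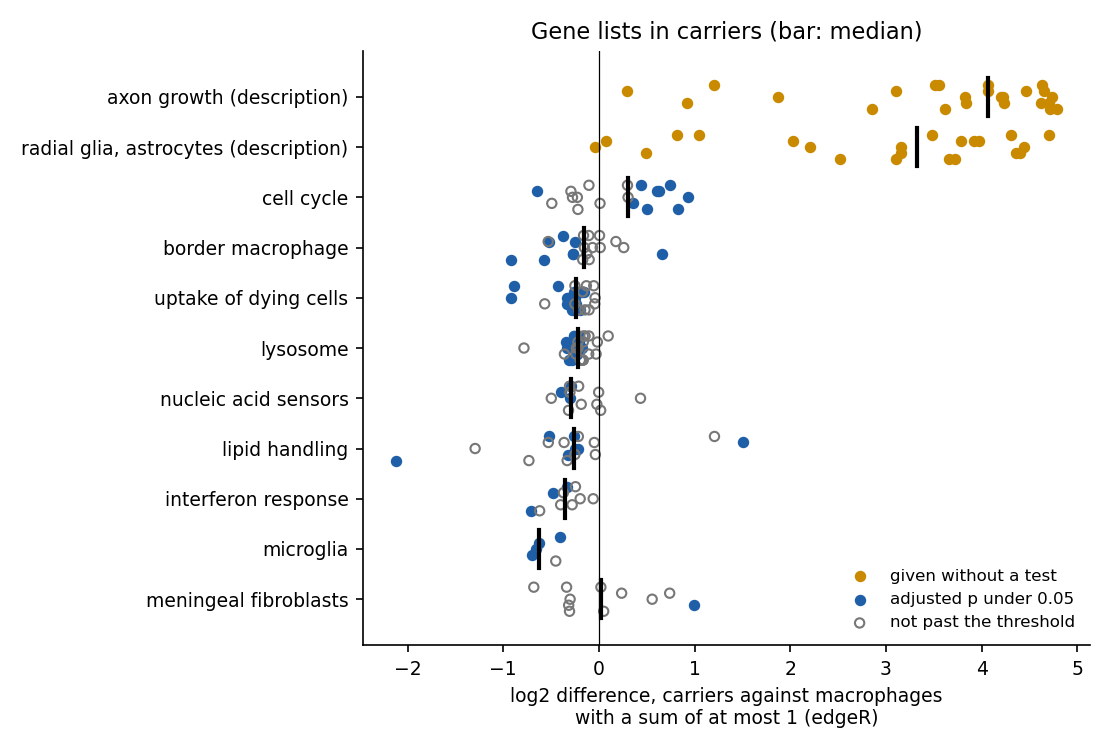
Log2 difference between carriers and low macrophages for each tested gene of the lists, 1 row per list; bars are list medians, orange points are neural lists shown without a test, blue points have an adjusted p under 0.05. The axon growth list has a median of 4.07 and the uptake, lysosome and interferon lists medians of -0.24, -0.22 and -0.35.

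Genes of border macrophages outside the gate gave 1 higher and 7 lower of 20 (median -0.16), and 0 and 3 at matched depth. Folr2, a folate receptor of resident macrophages, fell by 0.52 on the log2 scale and Fcna, a ficolin, by 0.58. Of 5 microglial genes tested, 4 fell (median -0.62), and 3 at matched depth. Cx3cr1, the fractalkine receptor, was at 466, 647, 326 and 339 CPM against 571, 626, 601 and 546 (log2 -0.40), with overlap between the classes because of naive 2.

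Cell cycle genes changed direction with the low macrophages they were compared with. Of 18, 8 rose and 1 fell (median 0.30), among them Ube2c, a ubiquitin-conjugating enzyme of mitosis, at 143, 157, 39.5 and 177 CPM against 74.3, 79.8, 48.9 and 65.5 (log2 0.93). Against low macrophages matched in depth and number, 0 rose and 4 fell (median -0.35), with Ube2c at -0.14. Which of these turned the direction was not tested. DESeq2 called 3 higher, and carriers at a sum of at least 12 gave 2. The neural barcodes held 270 CPM of Ube2c.

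Markers of the other cell types differed by type. Of 11 meningeal fibroblast genes tested, 1 rose, Igfbp2, and none fell (median 0.02), with summed levels of 152 to 232 CPM in carriers and 129 to 229 in low macrophages. The 12 endothelial and mural genes summed to 8.33 to 19.9 CPM against 10.9 to 13.8, and 6 of 7 erythroid genes were at 0 in all carriers. Ttr of the choroid plexus was at 14.2, 20.7, 0 and 5.69 CPM in carriers and at 230, 96.2, 4.97 and 2.54 in low macrophages, higher in naive low macrophages, and 63% of its low macrophage UMIs lay in 5 cells. The 7 neutrophil genes summed to 108, 575, 4.94 and 8.54 CPM in carriers and 82.7, 64.4, 799 and 331 in low macrophages, with Lcn2 called lower of 5 tested. The 7 T and NK cell genes summed to 0, 1.89, 0 and 0 against 2.06 to 7.28, with Il7r, at 0 UMIs in carriers, called lower. No gene was called among 8 clock, 8 immediate-early and heat shock or 6 MHC class II genes. The hypoxia and glycolysis list gave 1 higher of 20 and the glucocorticoid list 2 of 11, Mt2 and Ddit4, with 0 of 15 and 0 of 7 at matched depth, where 2 of 2 fibroblast genes rose.

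The response to HI was then tested within carriers and, in a separate fit, within low macrophages of the same libraries. In carriers, 20 of 8039 genes passed (0.249%), 18 higher in HI (0.224%) and 2 lower (0.0249%), with 692 at an unadjusted p under 0.05 and 14 called by DESeq2. The count depended on the libraries, at 31 without naive 2, 164 without HI 1 and 122 without HI 2, where a lone sample is assumed to vary like the other group. In low macrophages, which were more numerous in every library, 307 of 12978 passed (2.37%), 200 higher (1.54%) and 107 lower (0.824%). That count was 120 without naive 1, 76 without naive 2 and 634 without HI 2.

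Lmna, the nuclear lamin A, was at 41.1 and 56.6 CPM in naive and 203 and 168 in HI carriers (log2 1.92 ± 0.22, edgeR adjusted p 0.0011), and at 50.9, 55.1, 150 and 199 in low macrophages (log2 1.73). Ms4a6d, a membrane protein of macrophages, was at 336 and 363 against 1028 and 863 CPM in carriers (log2 1.43 ± 0.14, edgeR adjusted p 0.00023) and rose by 1.08 in low macrophages. Syngr2, a vesicle membrane protein, was at 220 and 248 against 484 and 564 CPM (log2 1.18) and rose by 1.13 in low macrophages. Vcam1, an adhesion molecule, was at 16.2 and 9.43 against 59.3 and 56.9 CPM (log2 2.14) and rose by 1.93. In these 4 genes both HI libraries lay above both naive ones in low macrophages too, which in carriers the rule for named genes required. S100a10, an annexin partner, rose by 1.52 in carriers and 0.76 in low macrophages, and Mt1, a metallothionein, by 0.84 and 1.00.

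Other genes of the response rested on few cells. Ccl12, a chemokine for monocytes, was at 174 and 144 against 1181 and 433 CPM in carriers (log2 2.28 ± 0.29, edgeR adjusted p 0.0027), where 128 of the 391 HI UMIs came from one cell. Cd74, the MHC class II invariant chain, was at 104, 81.1, 217 and 982 CPM, where 310 of 389 HI UMIs came from one cell. Without the barcodes of highest doublet score its log2 went from 2.80 to 0.75 and was not called. Plp2, a membrane protein, was at 5.88, 4.4, 44.5 and 37.0 CPM (log2 2.92), not called without naive 1, without naive 2 or without the highest doublet scores. Id2, a transcriptional inhibitor, was at 35.3, 32.0, 54.4 and 177 CPM (log2 1.93), with 0.68 and no call without HI 2. Isg15, an interferon response gene, was at 27.4, 44.0, 84.0 and 111 CPM, with 25 of 56 HI UMIs in one cell, and its log2 of 1.52 was -0.14 in carriers of a sum of 8 to 19.

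Of the 20 genes called, 2 were lower in HI carriers. Cd36, a scavenger receptor for lipids and dying cells, was at 362 and 314 CPM in naive and 188 and 128 in HI carriers (log2 -1.15 ± 0.19, edgeR adjusted p 0.019), and at 410, 331, 285 and 204 in low macrophages, which did not pass (log2 -0.59). The test of the difference between the HI responses of carriers and low macrophages did not pass for Cd36, so its fall is not particular to carriers by that test. Retnla, a secreted protein of alternatively activated macrophages, was at 49 and 99.3 CPM in naive and had 0 UMIs in HI carriers, at least 13.1-fold higher in naive against a floor of 3 counts over the HI group. Of its 258 UMIs 157 lay in one naive cell. Cd36 was not called in carriers of a sum of at least 12 or of 8 to 19, and Ccl12, Cd74, Id2 and Isg15 were not called with DESeq2.

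**Figure D5:**
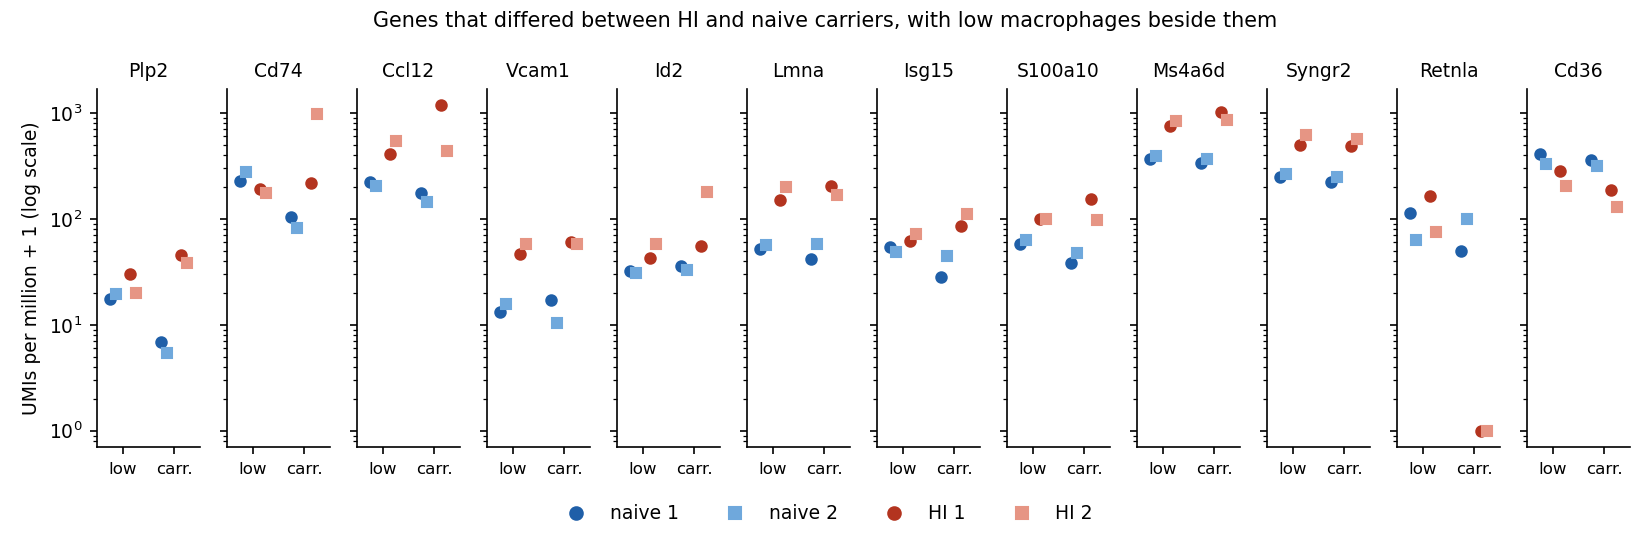
Level (CPM + 1, log axis) of the 12 genes named for the HI response in carriers, in low macrophages and carriers of each library. Lmna, Ms4a6d, Syngr2 and Vcam1 are higher in both HI libraries in both classes, in carriers by the rule for named genes. Cd74 and Retnla are spread widely among carrier libraries.

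Carriers of either group were chosen to hold neural RNA, so its level in them was largely set by the rule. In carriers, none of 23 axon growth genes, 19 radial glia and astrocyte genes or 6 oligodendrocyte genes was called, with medians of -0.19, -0.41 and -0.67. In low macrophages, whose sum was at most 1, 3 of 24 axon growth genes fell (median -0.83): Tuba1a, at 71.1, 66.7, 47.1 and 47.6 CPM (log2 -0.53), Tubb2b by 0.78 and Mapt, the microtubule protein tau, by 1.08. Mbp, the myelin basic protein, fell by 0.60. The lower neuronal RNA in HI was known beforehand, so these falls are a description. Low macrophages with a sum of 1 were 852 of 2613 in naive 1 and 973 of 3350 in naive 2. In HI 1 they were 507 of 2906 and in HI 2 956 of 4368. Of the other lists, hypoxia and glycolysis gave 8 of 21 higher in low macrophages and 0 of 15 called in carriers, where 14 of the 15 differences were positive with a median of 0.43.

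The difference between the HI responses of carriers and low macrophages was tested itself. It passed for 48 of 13130 genes (0.366%), 21 higher (0.16%) and 27 lower (0.206%), against 7 with DESeq2 and 25 without the highest doublet scores. The count was 24 without naive 1, 21 without naive 2 and 108 without HI 1. Cx3cr1 differed by -0.71 ± 0.14 on the log2 scale (edgeR adjusted p 0.00011): it was at 466 and 647 CPM in naive and 326 and 339 in HI carriers, while low macrophages stayed between 546 and 626. Ccl12 differed by 1.00 ± 0.13 (edgeR adjusted p 6.3e-11) and by 0.03 without HI 1. Some of the others rested on one cell: in H2-Ab1, 98.2% of the carrier UMIs.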

How the data were processed

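Gene expression was measured in single cells of mouse meninges in 4 libraries, and the deposited files also held receptor contigs, used here only to mark barcodes. The authors deposited raw UMI counts, whole numbers for every gene in every barcode. The submitters' processing notes name Cell Ranger 2.2.0, Seurat, mm10 and GRCm38 without their roles. A barcode was kept if it had 200 or more genes and no more than 10% of its UMIs from mitochondrial genes. Counts were summed per library over carriers and over low macrophages, filtered with filterByExpr, scaled by TMM and tested with edgeR 4.0.16 (quasi-likelihood, Benjamini-Hochberg adjustment over all genes tested, threshold 0.05). CPM are UMIs per 1000000 UMIs of the class in a library. The 5 genes of the sum and 9 of the gate stayed in the fit but not in the counts of calls. DESeq2 1.42.0, other thresholds and left-out libraries were alternatives; 3 (no TMM, sums of 8 to 19, no nuclear RNA) were chosen after seeing the data. Doublets stayed in: Scrublet (scanpy 1.11.5) marked 1, 1, 3 and 1 barcodes, so the highest scores, at 0.8% per 1000 barcodes, were removed as an alternative. The members and the gene lists were chosen with earlier results of these data known.

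Genes named in the comparison with low macrophages were the 12 with the largest change each way that passed, had one direction in all 4 libraries and had at least 20 CPM in the higher class, upward also 8 outside the neural lists. For HI they were the 10, and for the difference between responses the 5, with the largest change each way, with both HI libraries beyond both naive ones and the same minimum. Any gene of the lists could be named. Tested on simulated data, log2 changes of 1 and 2 were recovered in 100% and 100% of genes (carriers against low macrophages, 12719 genes), 59% and 99% (HI in carriers, 7934), 94% and 100% (HI in low macrophages, 14144) and 22% and 87% (difference, 13407). False calls among unchanged genes numbered 6, 12, 12 and 6 in the same order. The simulation changed only well-expressed genes and gave every gene the same spread. It had no single cells that hold much of a gene's UMIs, so its rates do not carry over to such genes or to genes of low level. Rian, Peg13 and Cebpd of the lists were not matched. Some results of the lists are not reported here.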

Additional observations from a re-analysis of the deposited data

Results flagged for a closer look

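In 10 genes the change with HI differed between carriers and low macrophages by the test of that difference itself (edgeR's interaction term), and these are the 5 with the largest difference each way under the rule for named genes. H2-Ab1 and H2-Eb1, both chains of MHC class II, gave fitted log2 differences of 9.72 and 8.97, which are no measure of size. They turned to -3.90 and -5.11 without HI 2, and H2-Eb1 to -5.29 at a sum of at least 12. A single cell held 55 of the 56 H2-Ab1 and 71 of the 74 H2-Eb1 UMIs of carriers. Cd74 gave 3.12, with 42.5% of its carrier UMIs in one cell. Cxcl16, a chemokine, gave 2.64, from 6.86, 1.26, 14.8 and 42.7 CPM in carriers, and was not called without naive 2 or HI 2. Plp2 gave 2.48, with 14.6% of its carrier UMIs in one cell.

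The other 5 had 0 UMIs in HI carriers, so their fitted values are no measure of size. BC100530, Stfa1, Gm5483 and 2010005H15Rik, stefins or genes of that cluster expressed in neutrophils, gave -15.97, -15.44, -14.84 and -13.05, and Retnla gave -13.68. One cell held 81.6%, 73.1%, 53.4%, 81.8% and 60.9% of their carrier UMIs, in that order. In low macrophages BC100530 was at 3.62, 4.77, 82.6 and 23.2 CPM and Stfa1 at 16.3, 13.6, 135 and 53.1. Whether single cells or the HI condition made these differences was not tested.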

How the results depend on the processing

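The share of carriers was lower in HI under the alternatives run, with log2 of HI over naive from -2.50 (sum of at least 12) to -2.89 (without Fabp7), -2.39 for Fabp7 alone at 4 or more, -2.39 to -2.97 when one library was left out, and -2.69 as the mean within a number (replicate block). Genes called between carriers and low macrophages, 1004, numbered 2143 with no filter, 642 with DESeq2, 191 at matched depth (fewer cells), 458 against sums of 2 to 7, and 577 to 1412 without one library. For HI in carriers, 20 became 108 with no filter, 74 with the replicate block, 6 at a sum of at least 12 and 26 to 164 without one library. For HI in low macrophages, 307 became 1377 with no filter, 556 with DESeq2, 2403 with the replicate block and 76 to 634 without one library. The difference between responses, 48, became 7 with DESeq2, 25 without the highest doublet scores and 21 to 108 without one library. Reversed values were Ube2c -0.14 and Tpx2 -0.12 at matched depth, Ccr2 0.61 against sums of 2 to 7, Isg15 in HI carriers -0.14 at sums of 8 to 19, Retnla in low macrophages -0.20 without HI 1 (-0.20 to 0.92 without one library), H2-Ab1 -3.90 without HI 2 (-3.90 to 14.65), and H2-Eb1 -5.29 at a sum of at least 12 and -5.11 without HI 2 (-5.11 to 9.79); the cause was not tested. The numbers in the labels pair too few libraries, 2 a group, to show that they mark runs: deviations of libraries with one number correlated at 0.06 in carriers (3019 genes) and 0.53 in low macrophages (2944 genes). The 14 and 28 HI carriers limit the HI comparison in carriers.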
